A study of Mus musculus with 93 samples.

Results

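The cells described here were single mouse olfactory neurons of the Early Immature Neuron stage that held transcripts of several odorant receptor genes at once, set against cells of the same stage with a single receptor. They were grouped by measured values: a cell was called a several-receptor cell when 2 or more Olfr symbols reached an FPKM of at least 100 (fragments mapped to a gene, divided by the length of its model and by the size of the library), and a one-receptor cell when exactly 1 did. Of 27 Early Immature Neuron cells, 10 were several-receptor cells, 14 were one-receptor cells and 3 had no receptor at that level. The series holds 93 libraries of 85 cells. All cells came from dissociated olfactory epithelium of C57BL/6 mice and were picked by hand, and their polyadenylated RNA was copied from an oligo(dT) primer and amplified by PCR. The labels give no age, sex or treatment, do not name the animal a cell came from, and do not say how a cell's stage was set. Each library is therefore 1 cell, each class counts as 1 sample, and no p-value or standard error was computed between the classes. Standard deviations (SD) and ranges below are spreads over cells.

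An olfactory sensory neuron arises from basal progenitors, passes through an immature stage marked by axon growth genes such as Gap43, and matures into a cell with the olfactory marker protein Omp and the machinery of odorant transduction. A mature neuron is known for transcribing 1 allele of 1 odorant receptor gene out of a very large family. In the accepted scheme, receptor protein made in the endoplasmic reticulum sets off the unfolded protein response through the kinase Perk and the translation of Atf5, and this feedback ends the period in which the histone demethylase Lsd1 (Kdm1a) allows further choices.

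The receptors that placed a cell in the several-receptor class are given first, as a description, since they chose the members. Cell D197 had Olfr1104 at an FPKM of 368, Olfr221 at 342.8 and Olfr878 at 226. Cell D200 had Olfr610 at 320, Olfr570 at 305 and Olfr1253 at 165. Cell D244 had Olfr741 at 344.1, Olfr328 at 266 and Olfr1322 at 261.8. The highest of these receptors was 1.63, 1.94 and 1.31 times the lowest in D197, D200 and D244, and D332 (1.79) and D411 (1.94), given below, were alike in this. Cell D318 had Olfr457 at 264.97, Olfr1102 at 117, Olfr808 at 111 and Olfr107 at 109. Cell D332 had Olfr1222 at 289, Olfr788 at 288 and Olfr1231 at 162. Cell D373 had Olfr1383 at 377, Olfr1314 at 257 and Olfr796 at 161. Each of these cells held further receptors under the level, and D318 had the most, with 15 receptors at an FPKM of 10 or more. Cell D411 had Olfr467 at 247, Olfr992 at 130 and Olfr1331 at 127. Cell D424 had the most receptors over the level: Olfr1431 at 302, Olfr323 at 205.3, Olfr615 at 194.6, Olfr113 at 150, Olfr209 at 148 and Olfr43 at 127. Cells D425 and D434 stood apart from the other 8. D425 had 1 dominant receptor, Olfr1384 at 3886, and a second, Olfr318, at 107. D434 had Olfr19 at 119 and Olfr1325 at 111, both just over the level.

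**Figure D1:**
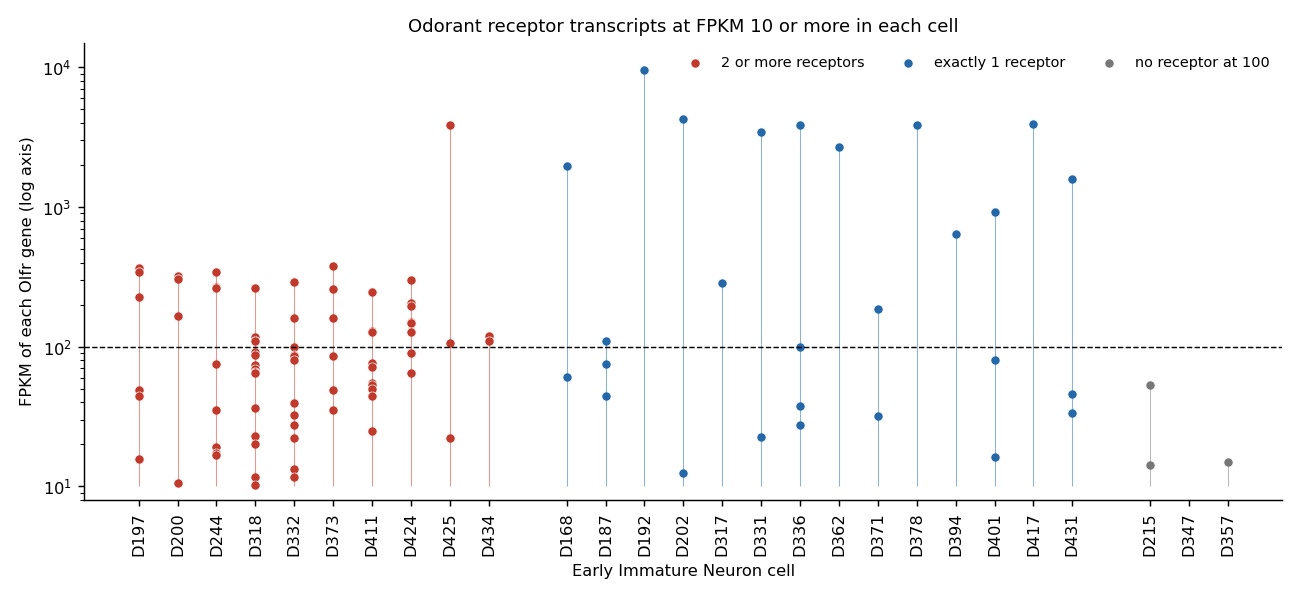
FPKM of each Olfr gene at 10 or more (log axis) in each of the 27 Early Immature Neuron cells, with the dashed line at 100 that set the classes. In 9 of the 10 several-receptor cells the top receptor lies between 119 and 377, and in D425 it reaches 3886, while the tops of the one-receptor cells reach 9610.

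The highest receptor of a cell reached 119 to 3886, median 311, in several-receptor cells and 110 to 9610, median 2330, in one-receptor cells. The top receptor was 1.002 to 36.4 times the second, median 1.38, in several-receptor cells. In one-receptor cells it was 1.45 to 3781 times the second, median 145. It held 22.8% to 96.4% of the summed Olfr FPKM of a several-receptor cell, median 33.1%, and 45.5% to 99.9% of that of a one-receptor cell, median 98.3%. The classes overlap in these measures. D425 lay among the one-receptor cells, and the single receptors of D187, D371 and D317 reached only 110 (Olfr876), 186.7 (Olfr661) and 285 (Olfr63), under the highest receptor of most several-receptor cells. Just inside the level lay Olfr318 of D425 at 107, Olfr107 of D318 at 109 and Olfr876 of D187 at 110. Just outside lay Olfr175-ps1 of D332 at 99.3 and Olfr186 of D336 at 98.8, so D336 was 1 receptor short of the several-receptor class.

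The 32 receptors at an FPKM of 100 or more in the several-receptor cells were 32 different genes on 12 chromosomes, and 18 of them were under an FPKM of 1 in every library of another cell. The 14 receptors of the one-receptor cells were also all different, and 5 of them were under 1 elsewhere. Of 41 pairs of receptors that shared a several-receptor cell, 4 lay on the same chromosome and 2 within 1 Mb. In 6 of the 10 cells every receptor lay on a different chromosome. The close pairs were Olfr610 and Olfr570 of D200, 604 kb apart on chromosome 7, and Olfr1222 and Olfr1231 of D332, 177 kb apart on chromosome 2. Reads shared between similar genes can look like a second receptor. Of the 41 pairs, 2 shared any run of 31 bases in their annotated transcripts (GENCODE M21), with at most 10 such runs in a pair, Olfr808 and Olfr107 of D318. Only exact runs were counted, and 31 of the 32 receptors were measured on assembled models rather than on these transcripts. Whether reads were shared was not tested.

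The pair of D200 is shown with its promoter sequences because both genes were over the level in 1 library and lie near each other. In the repeat library of D200, Olfr610 had 0. For the closer pair of D332, no promoter was found for Olfr1222. Olfr860, the highest receptor of any one-receptor cell (9610 in D192), is shown beside the pair of D200. Each sequence runs from 250 bases before to 50 bases after the RefSeq start (GRCm38.p6), 5′ to 3′ on the gene's strand. Capitals mark the homeodomain core TAATNA on either strand, the core bound by factors such as Lhx2.
Olfr610, chr7:103506895-103507194, minus strand: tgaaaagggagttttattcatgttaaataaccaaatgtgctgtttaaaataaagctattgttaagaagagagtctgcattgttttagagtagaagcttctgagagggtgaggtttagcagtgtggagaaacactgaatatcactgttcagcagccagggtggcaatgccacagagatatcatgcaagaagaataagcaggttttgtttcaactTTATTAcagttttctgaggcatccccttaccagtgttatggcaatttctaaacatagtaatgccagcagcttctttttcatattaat
Olfr570, chr7:102900092-102900391, plus strand: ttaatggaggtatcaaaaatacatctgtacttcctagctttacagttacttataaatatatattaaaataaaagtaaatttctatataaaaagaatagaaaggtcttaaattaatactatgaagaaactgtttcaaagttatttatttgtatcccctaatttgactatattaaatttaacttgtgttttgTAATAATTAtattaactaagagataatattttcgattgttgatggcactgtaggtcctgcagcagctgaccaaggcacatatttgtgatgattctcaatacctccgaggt
Olfr860, chr9:19849698-19849997, minus strand: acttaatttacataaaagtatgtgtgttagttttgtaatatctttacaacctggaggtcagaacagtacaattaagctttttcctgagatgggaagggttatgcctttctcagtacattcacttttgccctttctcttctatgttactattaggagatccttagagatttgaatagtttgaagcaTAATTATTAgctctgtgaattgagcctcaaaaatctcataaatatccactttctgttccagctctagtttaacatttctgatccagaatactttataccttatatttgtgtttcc
The RefSeq starts of Olfr610, Olfr570 and Olfr860 lay 29, 10 and 4 bases downstream of the start of the receptor models in the deposited annotation. Olfr610 held 1 match to TAATNA, and Olfr570 and Olfr860 held 2 overlapping matches each. Promoters were found for 26 of the 32 receptors of the several-receptor cells, and 20 of these (76.9%) held TAATNA, against 9 of 13 (69.2%) for the one-receptor cells. The RefSeq start lay within 50 bases of the model's start for only 13 of the 26 and 5 of the 13, of which 11 and 3 held the core, so the other windows may lie away from the start of the model. The share was 65.8% over 944 Olfr promoters and 26.8% over all 27025 promoters of the table. The core CCCNNGGG of the Olf/Ebf factors, searched on both strands, was found in 0 of the 26 promoters, 1 of the 13, 3.07% of Olfr promoters and 13.4% of all promoters. A match is a run of letters in this window and says nothing of binding.

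Receptor FPKM depends on the gene model. The deposited annotation carries assembled Olfr models, and 31 of the 32 receptors of several-receptor cells and 13 of the 14 of one-receptor cells were counted on such a model. The models spanned 173 to 5286 exonic bases, median 1156, in several-receptor cells and 586 to 8838, median 2097, in one-receptor cells. Models under 600 bases served for 6 receptors of several-receptor cells (Olfr221, Olfr741, Olfr328, Olfr107, Olfr318 and Olfr1325) and for 1 of a one-receptor cell (Olfr876 of D187). With the depth recovered from the steps of low FPKM values, the receptors rested on about 104 to 148944 fragments, median 1293, in several-receptor cells and on 533 to 102650, median 26858, in one-receptor cells. PCR copies are not independent molecules, so these numbers do not give a count of transcripts. When receptors were counted by FPKM times model length, 8 of the 10 several-receptor cells and 12 of the 14 one-receptor cells stayed in their class, D425, D434 and D215 joined the one-receptor class, and D187 and D336 became several-receptor cells.

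Repeat libraries existed for 3 of the 24 cells, and the receptors in them were only partly the same. In D244, 3 receptors passed the level in each library and 2 were shared: Olfr741 had 344.1 and 219, Olfr1322 had 261.8 and 141, Olfr328 had 266 and 71.0, and Olfr981 had 0 and 145. In D200, 3 and 2 receptors passed and only Olfr570 was shared, at 305 and 850, while Olfr610 had 320 and 0 and Olfr518 had 0 and 271. In D187, 1 receptor passed in the first library and 3 in the repeat, with none shared. Olfr876 had 110 and 0 there, and Olfr917, Olfr1157 and Olfr875 had 0 in the first library and 314, 187.4 and 157 in the repeat. D187 would thus be a several-receptor cell by its repeat library. Genes other than receptors were also only partly the same. At an FPKM of 1 or more, D187 had 3835 and 2840 genes, with 1725 in both libraries. D200 had 4260 and 3367, with 2074 in both, and D244 had 6398 and 6464, with 4388 in both. The labels call each repeat library a technical replicate of the same cell, but do not state which steps it shares with the first.

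The authors' deposited table of receptor and cell pairs lists 2 or more receptors for 8 of the 10 several-receptor cells and 1 for D425 and D434. It lists 1 receptor for 11 of the 14 one-receptor cells and 2 or more for the other 3. Its rows reach down to an FPKM of 11.6 (D318), so these numbers do not rest on the level of 100. At 100 or more it gave the same number of receptors as here for 3 of the 10 several-receptor and 12 of the 14 one-receptor cells. It then gave 1 for D197, D244, D425 and D434, and 0 for D187 and D371. The table's Pseudotime, a score without unit that the authors assigned to each cell, ran from 10.1 (D424) to 35.4 (D425), median 23.2, in several-receptor cells. It ran from 18.7 (D371) to 34.1 (D202), median 30.01, in one-receptor cells. The classes overlap, and 9 of the 10 several-receptor cells lay at or under 27.1 (D200). Since several-receptor cells had lower scores, lists and the main genes below are also given for the 6 several-receptor and 4 one-receptor cells with a score of 20 to 28, called the score range, which was chosen after seeing the data. How the score was made is not given in the sources used here, nor is whether receptor transcripts or the genes compared below entered it. Genes that entered it could be alike at like scores by construction.

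The libraries of both classes were of like size. Genes detected at an FPKM of 1 or more numbered 2857 to 6398, median 3942.5, in several-receptor cells and 2932 to 4944, median 4379, in one-receptor cells. Mitochondrial transcripts made up 29.9% to 85.2%, median 45.4%, and 27.7% to 73.3%, median 44.0%, of the summed FPKM. An FPKM of 100 on a model of 1 kb stood for about 167 to 983 fragments, median 572, and 211 to 948, median 574. Among lists of markers of other cell types, those of sustentacular (supporting) cells summed to FPKM 1.51 to 5350, median 158, over the several-receptor cells, with 15 of 17 genes detected in some cell. They summed to 0.406 to 525.7, median 20.1, over the one-receptor cells, with 7 of 17 detected. The highest sum was that of D244, which had Cbr2 at 2436, Ugt2a1 at 1023 and Cyp2g1 at 574, together with the gland and microvillous markers Coch at 677 and Ascl3 at 274.5. Its part in the results was not tested, and without D244 the counts and lists below kept their direction except those of receptor choice and feedback regulators, of progenitor and precursor genes and of axon guidance genes, whose medians went from 0.01 to -0.26, from -0.11 to 0.16 and from -0.10 to 0.01. The cell names carry numbers that fall in ranges, whose meaning is not stated: D168 to D205 held 2 several-receptor and 4 one-receptor cells, D213 to D274 held D244 and no one-receptor cell, and D316 to D434 held 7 and 10.

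Over all genes other than receptors, the classes were compared on the log2(FPKM + 1) scale, as the mean over several-receptor cells minus the mean over one-receptor cells. A gene entered when at least 50% of the cells of 1 class or the other had it at an FPKM of 1 or more, which 4463 of 31528 did. The pseudocount of 1 understates the difference of low genes. A gene was called higher or lower at a difference of 2 or more. By that rule 154 genes (3.45%) were higher in several-receptor cells and 330 (7.39%) were lower, and the median of all 4463 was -0.20. By sign alone 56.2% of the 4463 genes were lower and 43.8% higher, and within the score range their median was 0.06. Of these calls, 69 and 194 held when any 1 of the 24 cells was left out, and all kept their sign. Within the score range 106 of the 146 higher and 160 of the 300 lower genes that could be compared were still called, and 6 and 24 had the other sign. Since each class counts as 1 sample, these counts describe these cells and carry no test.

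Transcripts of the unfolded protein response and endoplasmic reticulum chaperones, the machinery that folds newly made membrane proteins, were lower in several-receptor cells. All 11 members compared, of 21 listed, were lower in several-receptor cells, 3 of them by 2 or more, against 7.39% of all genes, and the list median was -1.33 against -0.20. Hspa5 (BiP), the main chaperone of the endoplasmic reticulum lumen, had an FPKM of 0.242, 12.8 and 244.2 (lowest, median and highest) in several-receptor cells and 3.31, 129 and 545 in one-receptor cells. Its difference was -3.11 (means 3.34 ± 2.85 and 6.45 ± 2.15, SD, n = 10 and 14 cells). For Hspa5, 5 several-receptor cells lay under the lowest one-receptor cell, and D425, the cell with the dominant receptor, was the highest of its class. Hsp90b1 (Grp94), its Hsp90 partner in the lumen, had 0.322, 30.6 and 228 in several-receptor cells and 0.789, 117 and 504 in one-receptor cells, a difference of -2.48 (4.20 ± 2.65 and 6.68 ± 1.96). Herpud1, a component of endoplasmic reticulum-associated degradation, had 0.189, 1.72 and 660 against 0.0955, 53.7 and 1505, a difference of -2.08 (3.21 ± 3.39 and 5.30 ± 3.73). The classes overlap for both genes, and D425 again had the most Herpud1 of its class. Calr, the lectin chaperone calreticulin, differed by -1.67 and did not reach the call, with 0.380, 15.5 and 49.8 against 0.437, 40.3 and 282.

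Ppp1r15a, which was not on that list, was among the lower genes of the whole comparison. It encodes Gadd34, the phosphatase subunit that reverses the phosphorylation of eIF2α made by kinases such as Perk. It lay at chr7:45522916-45526268 (mm10) and had 0, 0.926 and 209 in several-receptor cells against 0, 138 and 556 in one-receptor cells, a difference of -4.11 (1.98 ± 2.67 and 6.09 ± 2.90). In 13 of 14 one-receptor cells it exceeded the median of the several-receptor cells, and in D425 (209) and D434 (52.3) it was far above the other 8, of which the highest had 3.77 (D332). Atf5, the transcription factor of the feedback, was detected in every cell of both classes, at 54.8, 182 and 346 against 99.5, 312 and 1433, and its difference was -0.97, under the call. Only 1 several-receptor cell lay over the median of the one-receptor cells for Atf5.

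**Figure D2:**
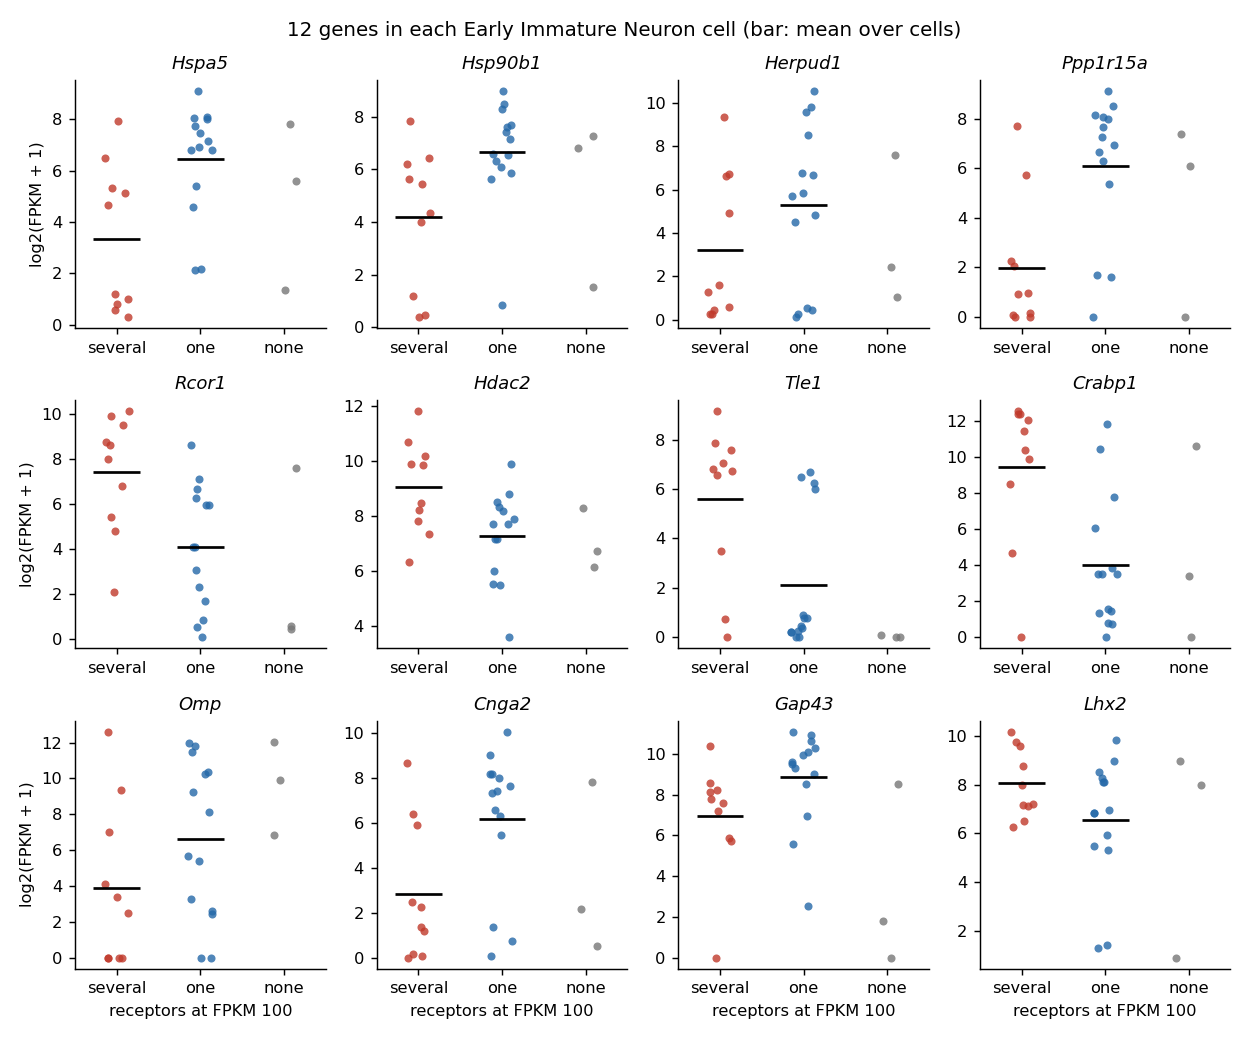
log2(FPKM + 1) of 12 genes in each cell, by class (points are cells, bars are means over the 10 several-receptor and 14 one-receptor cells, and the 3 cells without a receptor at 100 are shown without a bar). Hspa5, Hsp90b1, Herpud1, Ppp1r15a, Omp, Cnga2 and Gap43 have the lower mean in several-receptor cells, Rcor1, Hdac2, Tle1, Crabp1 and Lhx2 the higher one, and the points of the classes overlap in each panel.

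With the classes set at an FPKM of 100, the difference in chaperone transcripts was also present among cells of like score. Only 4 one-receptor cells (D187, D331, D336 and D417) lie in that range. When receptors were counted by model length, D187 and D336 became several-receptor cells and D434 a one-receptor cell. D187 also had 3 receptors over the level in its repeat library. Among the cells with a score of 20 to 28 the median of the same 11 genes was -1.26, 9 of them lower, and Hspa5 differed by -3.42, Hsp90b1 by -2.77, Herpud1 by -1.12 and Ppp1r15a by -6.41. In the cells numbered D316 to D434 the median was -1.32, with 11 of 11 lower. In D168 to D205, with 2 and 4 cells, it was -0.44. The mean of the 11 genes per cell on the log2(FPKM + 1) scale was 2.26 to 7.20, median 2.94, in several-receptor cells and 2.32 to 6.53, median 5.38, in one-receptor cells. Within the score range it was 2.29 to 5.33, median 2.94, against 3.56 to 5.51, median 5.04, and the cells D434 (5.33) and D244 (4.64) were the several-receptor cells inside the range of the other class.

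**Figure D3:**
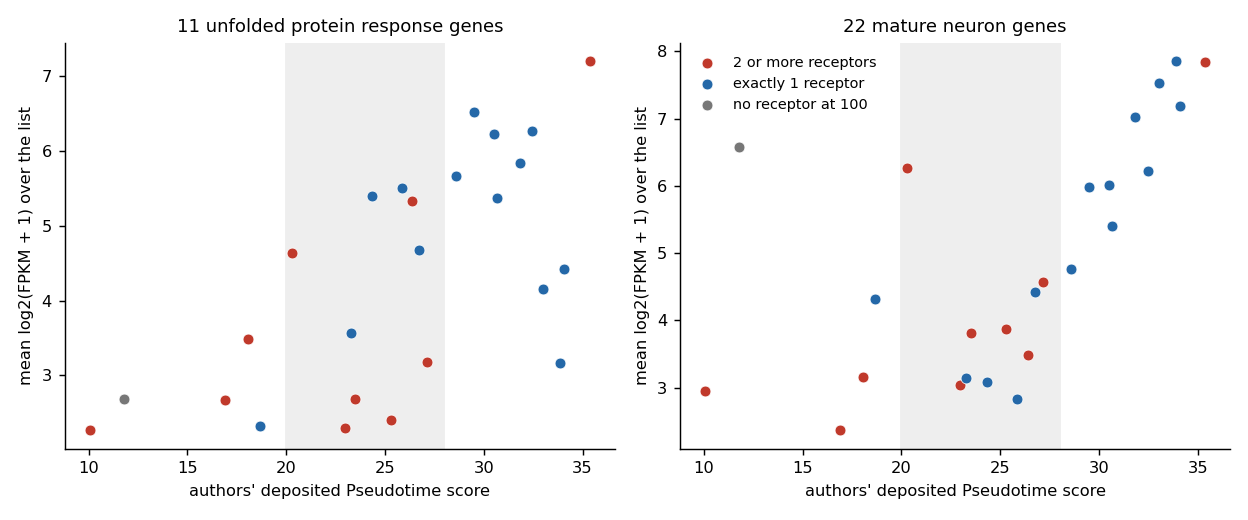
Mean log2(FPKM + 1) of the 11 unfolded protein response genes (left) and of 22 mature neuron genes (right) per cell against the authors' Pseudotime score, with the range of 20 to 28 shaded. In that range 4 of the 6 several-receptor cells lie under every one-receptor cell on the left. On the right the classes overlap there, with 3.03 to 6.27 (median 3.84) in several-receptor cells and 2.84 to 4.42 (median 3.12) in one-receptor cells.

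The mature neuron genes differed in the same direction over all cells but not at like scores. Whether these genes entered the score is not known, so the score range cannot decide between the classes for them. Of 22 members compared, 19 were lower in several-receptor cells (56.2% of all genes were) and 6 of them by 2 or more (7.39% of all genes), with a median of -1.50. Cnga2, a subunit of the odorant-gated channel, had 0, 2.68 and 400.8 in several-receptor cells against 0.0361, 165 and 1059, a difference of -3.33 (2.84 ± 3.06 and 6.17 ± 3.17). Omp had 0, 7.01 and 6224 against 0, 163 and 4097, a difference of -2.72 (3.90 ± 4.45 and 6.61 ± 4.40). The highest value of both genes in the several-receptor class was that of D425. Rtp1, which carries receptors to the cell surface, differed by -2.71, Carns1, the carnosine synthase, by -2.99 and Gnal, the olfactory G protein subunit, by -1.99. Adcy3, the adenylyl cyclase of the pathway, differed by only -0.08 and was low in both classes, with medians of 2.17 and 1.13. Within the score range of 20 to 28 the list median was 0.61, 13 of the 22 genes were higher in several-receptor cells, and Omp differed by 1.66, Cnga2 by -0.52, Rtp1 by -0.46, Carns1 by -1.15 and Gnal by 3.80. The median was -1.51 in D316 to D434 and -2.53 in D168 to D205.

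The immature neuron list had 17 of 21 members lower, 1 of them by 2 or more, against 56.2% and 7.39% of all genes, with a median of -0.51. Dcx, a microtubule protein of migrating and immature neurons, was the called gene, at 0.0368, 15.03 and 99.5 against 0.238, 105 and 178.2, a difference of -2.51 (-0.83 within the score range). Gap43 had 0, 205.3 and 1325 against 4.77, 743 and 2155, a difference of -1.91 (6.94 ± 2.78 and 8.85 ± 2.36), and no several-receptor cell other than D434 lay over the one-receptor median. Tubb3, the neuronal tubulin, had the same median in both classes, 479, and a difference of -0.25, and Gng8, a G protein subunit of immature neurons, differed by -0.01. Within the score range the median was -0.87, with 17 of 21 lower, and it was -0.82 in D316 to D434 and 1.06 in D168 to D205, so the direction differed between the number ranges. Detection differed between the named members of this list. Tubb3 and Hdac2 were detected in 10 of 10 and 14 of 14 cells, Gap43 in 9 and 14 and Gng8 in 9 and 11. Dcx was detected in 7 and 13 cells and Chd7 in 4 and 7. Tubb3 alone does not mark the stage, as its medians were 962, 321 and 113 in Precursor, Late Immature Neuron and Mature Neuron cells. Gap43 was 0 in D244. Of 18 progenitor and precursor genes only 7 were detected widely enough to compare, with 3 higher and 4 lower and a median of -0.11 (-0.99 within the score range). Hes6, a neurogenic bHLH factor, was higher by 2.55 (1.02, 105 and 1221 against 0, 3.54 and 461) but by only 0.39 within the score range. Insm1, a zinc finger factor of neuronal progenitors, was lower, at -2.09 (medians 2.69 and 23.7) and -2.70. Neurog1 and Neurod1, proneural factors of precursors, were detected in 1 and 0 several-receptor cells and in 0 and 2 one-receptor cells.

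Regulators of receptor choice and feedback were split, with 11 of 22 members higher and 11 lower, a median of 0.01, and 3 called higher, against 3.45% of all genes, and the median was -0.06 within the score range. Rcor1 (CoREST), the scaffold that joins Lsd1 to histone deacetylases, was the most different of them and lies at chr12:111039351-111115901 (mm10). It had 3.30, 328 and 1108 in several-receptor cells and 0.0686, 16.2 and 397.9 in one-receptor cells, a difference of 3.31 (7.41 ± 2.60 and 4.10 ± 2.73). Of the 10 several-receptor cells 9 lay over the one-receptor median, 5 lay over the highest one-receptor cell (D371, 397.9), and the lowest several-receptor cell was D425. Its difference was 2.30 within the score range and 2.95 in D316 to D434. The deacetylase Hdac2, listed with the immature neuron genes, had 80.3, 639 and 3563 against 11.1, 209 and 937, a difference of 1.78 under the call. Kdm1a itself differed by -0.48, with medians of 8.45 and 25.3, and was detected in 6 of 10 and 10 of 14 cells. Yy1, a zinc finger factor that bridges promoters and enhancers, was higher by 2.38, with medians of 9.43 and 0.0644, and by 1.75 within the score range. Smchd1, a chromatin protein of X inactivation and clustered gene silencing, was higher by 2.47 over all cells (medians 177 and 2.59) but differed by -1.31 within the score range. Lhx2, a homeodomain factor needed for receptor transcription, had 75.6, 200 and 1156 against 1.43, 119 and 917, a difference of 1.49, and Ebf1, its partner at receptor enhancers, had medians of 146 and 92.4 and a difference of 0.76. Ehmt2, which methylates histone H3 at lysine 9, differed by -1.93, with medians of 0.0931 and 6.99, but by 0.83 within the score range. Ldb1 and Lbr were detected in too few cells to compare, 1 and 0 several-receptor cells and 2 and 1 one-receptor cells.

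The 12 genes with the largest positive differences are given next. Crabp1, which binds retinoic acid in the cytoplasm, led with 0, 2044 and 5833 in several-receptor cells against 0, 10.2 and 3569, a difference of 5.39 (9.41 ± 4.10 and 4.02 ± 3.71). In 9 of the 10 several-receptor cells Crabp1 lay over the one-receptor median, and the value of 0 was that of D425. Tle1, a Groucho corepressor, had 0, 108 and 565 against 0, 0.547 and 103, a difference of 3.50, and was detected in 8 of 10 and 4 of 14 cells. For Tle1, 6 several-receptor cells lay over the highest one-receptor cell. Id4, an inhibitor of bHLH factors, differed by 3.33 (medians 272 and 24.2), Dlx6, a homeobox factor, by 3.39 (medians 25.03 and 0.257), and Zmynd8, a reader of histone marks, by 3.20 (medians 39.9 and 0.789). Sertad2, a transcriptional coregulator, was detected in all 10 several-receptor cells (1.74, 71.1 and 228) and in 7 of 14 one-receptor cells (0.0182, 0.723 and 234.3). Zfp422, Tex15, Ier5, Csrp2 and Lrrc1 completed the 12 largest, with differences of 3.81, 3.56, 3.28, 3.22 and 3.20. For all 12 genes the difference stayed positive within the score range (1.40 to 4.69) and in D316 to D434 (2.44 to 5.56), while Id4 differed by -0.27 in D168 to D205. Of the 12, D371 or D187, the one-receptor cells with the lowest scores of their class, held the highest one-receptor value for 10.

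The genes with the largest negative differences were Impdh1, a rate-limiting enzyme of guanine nucleotide synthesis, at -4.37 (medians 0.461 and 65.9) and Nme3, a nucleoside diphosphate kinase, at -4.27 (medians 3.29 and 302). Igsf8, an immunoglobulin superfamily membrane protein, followed at -4.25 (medians 2.70 and 312), with Ppp1r15a described above. Serpine2, a protease inhibitor, had 0.0651, 1.17 and 983 against 0.604, 261.7 and 882, a difference of -4.06. Fetub, Nsg2, Wdsub1, Tbpl1, Ift81, Fam92b and Acsl6 had differences of -3.97, -3.97, -3.93, -3.83, -3.77, -3.77 and -3.73. D425 was the highest several-receptor cell for 8 of these 12 genes, and in all 12 the difference stayed negative without any 1 cell. Within the score range the 12 differences ran from -6.41 (Ppp1r15a) to -0.21 (Ift81). Ift81, a subunit of the intraflagellar transport train of cilia, was the only one of them on the cilia list. Of that list 10 of 25 members were higher and 15 lower, 3 of these by 2 or more, against 56.2% and 7.39% of all genes. The list median was -0.34 (0.22 within the score range).

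Ribosomal protein transcripts differed little in size but nearly all in 1 direction. Of 81 cytoplasmic ribosomal protein genes compared, 78 were higher in several-receptor cells, none by 2 or more, against 43.8% and 3.45% of all genes. The median was 0.71. Rpl17 had 365, 1096 and 1323 against 20.9, 459 and 841, a difference of 1.66 (9.94 ± 0.534 and 8.28 ± 1.39), and 8 several-receptor cells lay over the highest one-receptor cell. Rps3 had 120, 589 and 1083 against 7.87, 214 and 574, a difference of 1.64. Rps27l, a stress-linked paralog, was the 1 member called lower, at -2.01 (-0.58 within the score range). The median was 0.33 within the score range, where 21 of the 81 were lower, and 0.54 and 1.21 in D316 to D434 and D168 to D205. Ribosomal protein genes have many processed pseudogene copies, so reads of single members may be split among copies. Of 42 nuclear genes of oxidative phosphorylation 28 were lower, 2 by 2 or more, median -0.26, against 56.2% and 7.39% of all genes, and within the score range 12 of the 42 were lower, median 0.44. Of 15 housekeeping genes 7 were higher and 8 lower, median -0.03 (-0.54 within the score range).

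Synapse genes were lower in 9 of 12, with 1 by 2 or more, against 56.2% and 7.39% of all genes. Their median was -1.01, and at like scores it was 0.57. Snap25, a vesicle fusion protein, had 0.0983, 29.3 and 200 against 0, 189.2 and 1220, a difference of -2.58 over all cells and of 0.71 within the score range. Of 10 axon guidance genes 4 were higher and 6 lower, median -0.10 (-0.28 within the score range). Cntn4, an adhesion molecule, was lower, at -2.26, but differed by -0.11 within the score range. Of 5 zone markers 4 were higher, none by 2 or more, against 43.8% and 3.45% of all genes, with a median of 1.34 (0.84 within the score range). They included Nfia and Nfib, nuclear factor I genes, with differences of 1.89 and 1.46, and Nrp2, a semaphorin receptor of ventral neurons, with 1.34. Of 30 splicing and translation factors 16 were higher and 14 lower, median 0.13 (-0.56 within the score range). Of 7 cell cycle genes 1 was higher and 6 lower, median -0.63 (-0.16), with none called, while 56.2% of all genes were lower and 7.39% called lower. Immediate early genes, which respond to dissociation within minutes, did not share a direction. Jun was higher by 2.93 (9.48, 48.9 and 308 against 0.326, 0.869 and 754), while Egr1 differed by -2.98 (medians 0.157 and 51.4) and Fos by -2.16 (medians 0.204 and 1.13). Within the score range these were 3.35, -3.24 and 0.23. Of the other lists 2 sustentacular genes were compared, Ezr, a membrane linker also present in neurons, higher by 2.55 but by 0.03 within the score range, and Cbr2 by 0.66 and 2.96. Of the chemosensory list Gnai2 was higher by 2.04 (3.53 within the score range) and Gnao1 differed by -0.76. No gene of horizontal basal, gland, glial, blood or stromal cells was detected widely enough to compare.

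**Figure D4:**
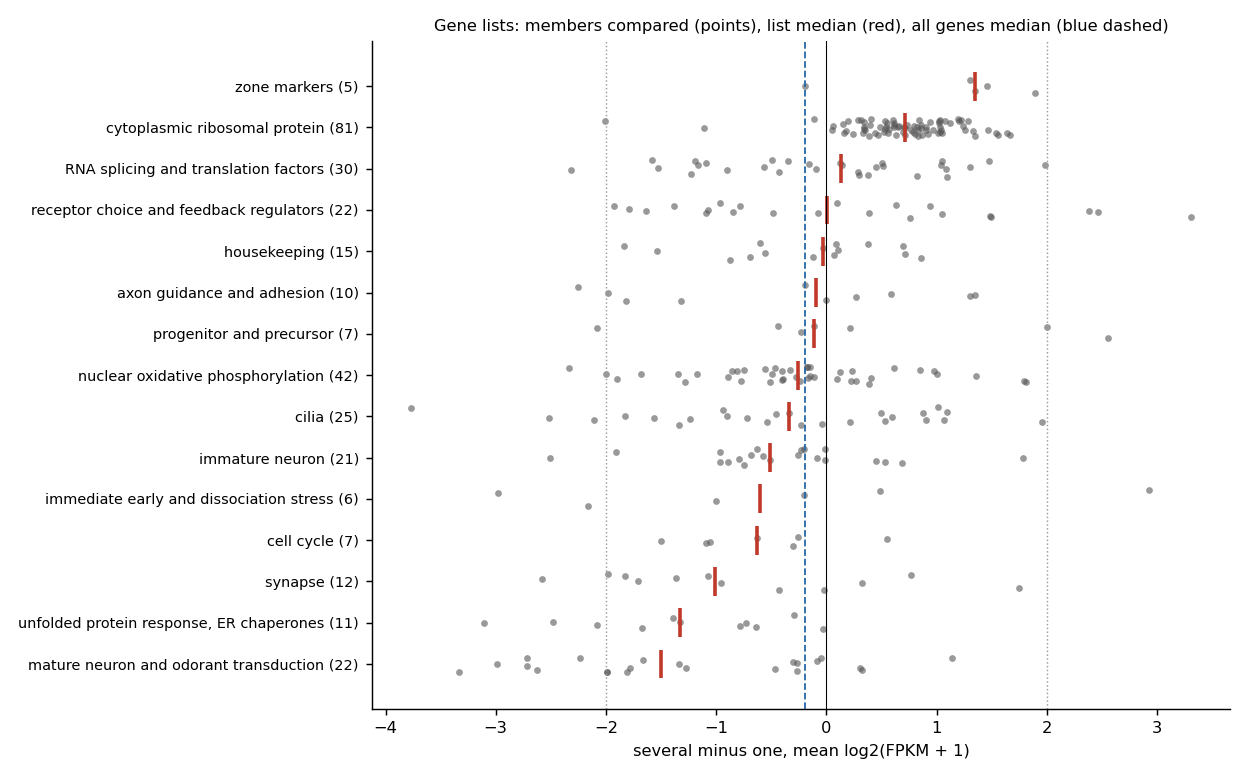
Difference of mean log2(FPKM + 1), several minus one, of each member compared (points) for 15 gene lists, with the list median (red), the median of all 4463 genes (blue dashed, -0.20) and dotted lines at differences of 2. The medians run from -1.50 for mature neuron genes and -1.33 for the unfolded protein response to 0.71 for ribosomal proteins and 1.34 for the 5 zone markers.

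**Figure D5:**
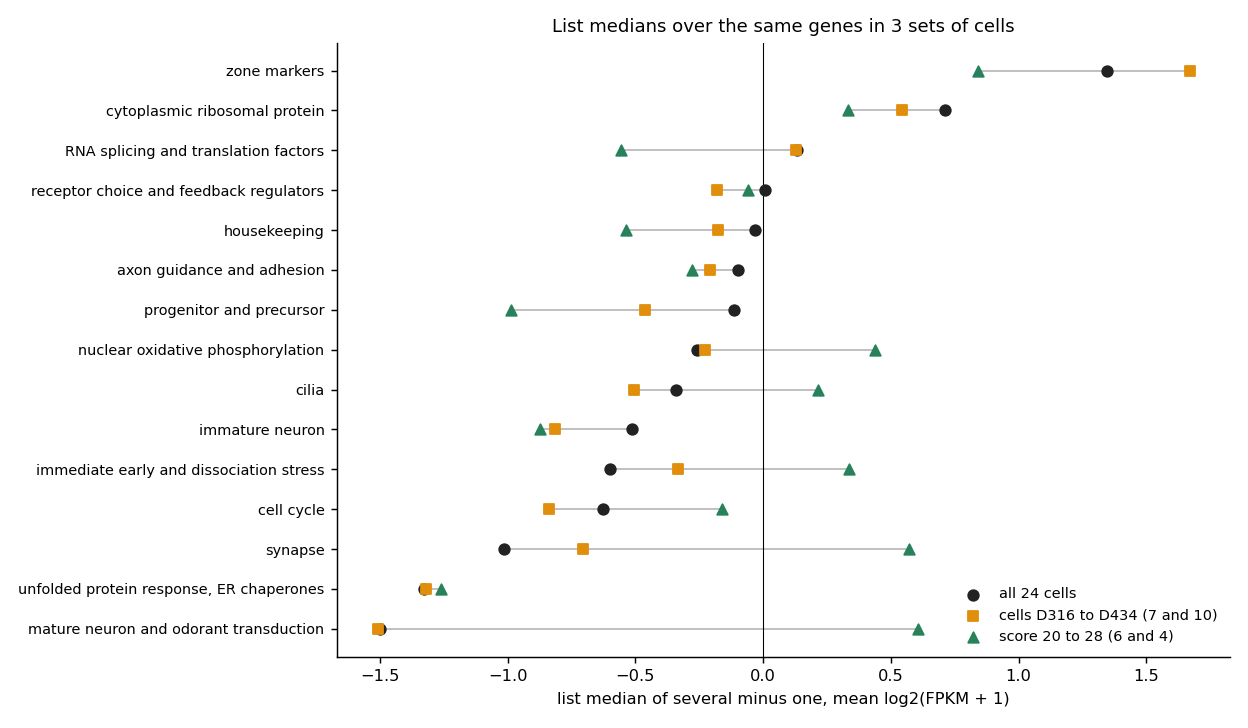
The same list medians over all 24 cells (circles), over cells D316 to D434 (squares, 7 and 10 cells) and over cells with a score of 20 to 28 (triangles, 6 and 4 cells). The unfolded protein response list lies between -1.33 and -1.26 in all 3, and the mature neuron list goes from -1.50 to 0.61. The 3 sets share cells. Cells D168 to D205 (2 and 4 cells) are not plotted, and there the 2 medians were -0.44 and -2.53.

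Other stages placed these levels along the lineage. Crabp1 and Tle1 had medians of 108 and 39.5 in the 9 Precursor cells and of 0 in both later stages, the 13 Late Immature Neurons and the 25 Mature Neurons. Hes6 went from 289 in Precursor cells to 3.64 and 0.123, and Rcor1 had medians of 8.21, 1.87 and 0.368, all under the 328 of the several-receptor cells. Id4 had 1.36, 60.3 and 129, against 272 in several-receptor and 24.2 in one-receptor cells. Hspa5 had medians of 68.7, 156 and 110 in the 3 stages, which lie over the 12.8 of the several-receptor cells. Ppp1r15a was low in Precursor cells, at 2.41, and had 28.9 and 10.5 in the later stages, against 138 in the one-receptor cells. Wdsub1 and Fetub, at 0.223 and 0.284 in Precursor cells, had 150 and 574 in Late Immature Neurons, nearer to the one-receptor cells (164 and 207) than to the several-receptor cells (0.990 and 0.597).

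Several receptors at an FPKM of 100 were also found in 3 of 13 cells labelled Late Immature Neuron and in 7 of 25 labelled Mature Neuron, and the same comparison was made there over the same genes. The unfolded protein response list had a median of 0.11 in Late Immature Neurons (3 and 9 cells, 5 of 11 lower) and 0.73 in Mature Neurons (7 and 17 cells, 3 of 11 lower), against all-gene medians of -0.39 and 0.03. Hspa5 differed by -0.19 and 1.63 in these stages, Hsp90b1 by -0.72 and 1.66, and Ppp1r15a by -2.02 and 0.22. Rcor1 differed by -2.71 and 2.02, with medians of the several-receptor cells of 0.440 and 1.66. The mature neuron list had medians of -0.05 and 0.17. These differences were not tested against those of the Early Immature Neurons, because each class of a stage counts as 1 sample.

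The 3 Early Immature Neuron cells without a receptor at 100 did not resemble each other. D215 had a score of 11.8, Crabp1 at 1516, Omp at 4143 and Hspa5 at 47.8. D347 had Omp at 970, Hspa5 at 221 and Ppp1r15a at 67.6. D357 had Cd52, a leukocyte surface protein, at 1626, Laptm5 at 386 and Gap43 at 2.46, so its label is not matched by its markers. None of the 3 entered a comparison at the level of 100, and with receptors counted at an FPKM of 10 D357 was 1 of the 7 one-receptor cells.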

How the data were processed

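Single-cell libraries of polyadenylated RNA were sequenced by the submitters, and the files used here start after their processing. The submitters' processing notes name the mm10 genome and the tools TopHat2 2.0.14, Cufflinks 2.2.1, cutadapt 1.2.1, CASAVA 1.8.2 and Trim Galore. How these were set, whether strand was used and whether libraries were scaled to each other is not given in the sources used here. FPKM values were deposited for 32975 entries in 93 libraries, with no counts. The deposited receptor table gives Pseudotime, a score without unit, for some cells. The deposited annotation gives genome positions (other values) for genes and assembled Olfr models.

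The highest row per symbol was used, which left 31528 genes beside 1112 Olfr symbols, with pandas 2.3.3 and numpy 2.4.6. Olfr symbols with an FPKM of at least 100 were counted per cell to form the classes, and repeat libraries were left out. Differences are several minus one on the mean log2(FPKM + 1) scale, for genes that at least 50% of the cells of 1 class or the other held at an FPKM of 1 or more, and a call needs a difference of 2. Each class counts as 1 sample, so no test was made. The script was checked on simulated data. Depth was recovered from the steps between low FPKM values in 1370 genes with a single exon and 800 to 4000 bases (at least 5 genes within 5%). Fragment numbers are estimates, and Cufflinks corrections could shift them. Named genes are the 12 called, annotated genes with the largest differences in each direction, up to 4 members per list with the largest difference, and a set of followed genes. The members, gene lists and followed genes were chosen with earlier results of these data known. Alternatives numbered 16 planned and 4 added after seeing the data. Promoters and motifs come from the RefSeq table of GRCm38.p6.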

Additional observations from a re-analysis of the deposited data

Results flagged for a closer look

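In the several-receptor class, a cell is named here when its distance to its nearest neighbour, as a share of the whole range of the class, exceeded the 95% critical value of Dixon's test. Of 103 groups of values looked at, 15 held such a cell, where chance flags about 1 in 20 if values are spread normally. These values need not be, so the flags are description only. Groups of over 10 cells, which includes the one-receptor class, were not looked at. D244 stood apart by its number of genes detected (6398), its summed FPKM (2.70036e+06) and its summed sustentacular markers (5350). On the log2(FPKM + 1) scale it also stood apart for Ift81, at 4.24 the highest, and for Gap43 at 0 and Tubb3 at 5.34, the lowest of its class. D425 stood apart by its summed Olfr FPKM (4032) and the share of its top receptor (96.4%), but receptor values formed the class, so these flags support nothing. D425 also stood apart for Carns1 (7.31), Plxna1 (6.06) and Ier2 (6.61), of the mature neuron, axon guidance and immediate early lists, which were highest there. Rpl17 (8.52) was lowest there. D434 stood apart for Cks2 (4.64) and Fos (6.39) and D318 for Arl13b (4.68), each the highest of the class.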

How the results depend on the processing

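All comparisons rest on 10 and 14 cells of unknown animals, on FPKM without counts, and on classes that 1 receptor near the level can move. Genes higher in several-receptor cells were 3.45% of the genes compared. They were 7.03% with receptors counted at an FPKM of 200, 5.34% with 3 or more receptors as the class, 9.03% and 0.157% with pseudocounts of 0.1 and 10, 5.80% after scaling without mitochondrial and Olfr genes, 11.8% as a difference of medians, 13.3% within a score of 20 to 28 (6 and 4 cells) and 21.8% in D168 to D205 (2 and 4 cells). Lower genes were 7.39%. They were 5.33% with receptors at an FPKM of 50, 16.8% and 0.762% with the pseudocounts, 20.1% as a difference of medians, 12.1% in D316 to D434, 11.8% within the score range and 20.7% in D168 to D205. Higher genes were 31.8% of all calls, 53.0% within the score range and 51.3% in D168 to D205. Without any 1 cell the shares were 3.38% to 4.33% higher and 6.95% to 10.1% lower. Under the other settings both numbers of genes called stayed within 1.5 times. Their shares fell where more genes were compared. These were 0.561% higher and 1.14% lower with no filter on low values (31528 genes), and 2.32% and 4.76% with detection in 25% of cells (7454 genes). The genes called were partly others. Of the 154 higher and 330 lower genes, 16.9% and 28.8% were called again with receptors at an FPKM of 10 (14 and 24 genes had the other sign), 29.2% and 35.8% at an FPKM of 50, 63.0% and 60.9% at an FPKM of 200, 47.4% and 52.7% by model length, and 49.4% and 77.6% with the repeat libraries. At an FPKM of 10 the one-receptor class holds D357, whose markers go against its label. Scaling moved the median of all genes from -0.20 to -0.14. Of 49 named genes called over all cells, 5 turned direction within the score range: Omp (1.66), Smchd1 (-1.31), Kif3b (0.66), Snap25 (0.71) and Fos (0.23). Of 45 named genes under the call, 7 turned: Gnal (3.80), Ric8b (1.95), Rab3a (1.61), Ehmt2 (0.83), Ier2 (0.45), Adcy3 (0.39) and Chd7 (0.34). Of the called genes it turned in D168 to D205 for Id4 (-0.27), Insm1 (0.53), Smchd1 (-0.11) and Fos (0.31), with receptors at an FPKM of 10 for Arl13b (0.68) and Rps27l (0.47), and with receptors counted by model length for Rps27l (0.24). The cause was not tested. No paired analysis was possible because the cell numbers are names that no 2 cells share.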

Other observations

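Gene groups chosen after their values were seen, with full membership from textbook knowledge, showed further differences in the secretory pathway. All 10 subunits of the oligosaccharyltransferase complex that were compared, the enzyme that adds glycans to nascent proteins in the endoplasmic reticulum, were lower in several-receptor cells, 3 of them by 2 or more, with a median of -1.63. Over all genes compared 56.2% were lower and 7.39% lower by 2 or more. Ddost had an FPKM of 0, 0.429 and 34.8 (lowest, median and highest) in several-receptor cells and 0.176, 38.7 and 451 in one-receptor cells, a difference of -3.33, and Rpn1 differed by -2.33 and Tusc3 by -3.02. The median was -2.16 in D316 to D434 and -1.59 within a score of 20 to 28. All 9 genes of sterol synthesis compared were lower, 4 of them by 2 or more, median -1.53, with Fdft1 at -3.46, Sqle at -3.13, Hmgcs1 at -2.70 and Cyp51 at -2.14, and the median was -0.77 within the score range. Of 11 COPII coat genes and receptors for retrieval to the endoplasmic reticulum 7 were lower, 5 by 2 or more, median -1.90, but the median was 0.38 within the score range. The Sec translocon and signal peptidase genes did not share a direction (8 of 17 higher, 9 lower, median -0.02), apart from Sec62 at -2.76.

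Of 13 cytosolic aminoacyl-tRNA synthetases 10 were lower, 2 by 2 or more (Eprs at -2.50 and Gars at -2.38), against 56.2% and 7.39% of all genes. Their median was -0.87 (-0.22 within the score range). Eprs and Gars were each detected in 2 of 10 several-receptor cells, and in 9 and 10 of 14 one-receptor cells. Dlx5 and Dlx6, neighbouring homeobox genes, were both higher, by 3.13 and 3.39. Dlx5 had 0, 29.2 and 355 in several-receptor cells and 0, 0.222 and 421 in one-receptor cells and was detected in 6 of 10 and 2 of 14. Since these groups were chosen for how they moved, their counts describe these cells and support nothing.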
